A study of Mus musculus with 24 samples.

Results

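The retinas of mouse embryos at day E14 were compared with those at day E12, an interval in which the first retinal neurons, mainly ganglion cells, are being born. The comparison rests on 4 of the 24 libraries of a developmental series, the 2 labelled E12 (replicates 1 and 2) and the 2 labelled E14 (replicates 1 and 2). The series covers 12 ages, 4 embryonic and 8 postnatal, with 2 libraries each. All 4 libraries are from excised, frozen retinas of strain C57/Bl6N with no treatment or engineered allele given in the labels, from which RNA was taken in Trizol and made into directional PolyA libraries. The input was 100 ng of RNA at E12 and 1 µg at E14, so age and RNA input cannot be told apart in any difference given here. The labels do not say whether replicates came from separate animals, litters or pools. The p-values measure only the spread between replicate libraries, estimated over all 24 libraries of the series, and that spread may be technical. Because tissue was measured in bulk, more or fewer cells of a type and more or less RNA per cell cannot be told apart.

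In the mouse retina a sheet of dividing progenitors gives rise to neurons in overlapping waves. Ganglion cells, cones, horizontal cells and early amacrine cells begin first, and most rods, bipolar cells and Müller glia follow later. Basic helix-loop-helix (bHLH) factors push progenitors towards a neuronal fate, Notch signalling between neighbouring cells holds others back, and the first ganglion cells secrete Sonic hedgehog, which acts on the progenitors beneath them. Ganglion cells are also the only retinal neurons that send an axon to the brain, so growth cone, cytoskeletal and axon guidance genes are among their early products.

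Library totals were 27773946 and 30366206 estimated counts at E12 and 32287797 and 28683910 at E14. Levels are given in CPM, the counts scaled to a common library total with factors from the trimmed mean of M values (TMM), in the order replicate 1, replicate 2. Across 15129 genes, log2 levels correlated at r = 0.974 between the E12 libraries and r = 0.98 between the E14 libraries, against 0.921 to 0.933 between libraries of the 2 ages, as a description. All 15 retinal progenitor genes on the list were measured in each of the 4 libraries. Pax6 stood at 828 and 814 CPM at E12 and 815 and 843 CPM at E14. Their presence goes with the label retina but does not exclude other tissue. Both libraries numbered 2 stood apart by lens transcripts. Summed over the 21 lens genes tested, levels were 303 and 4167 CPM at E12 and 88.4 and 3267 CPM at E14. Of those genes, 19 were higher in replicate 2 at E12 and all 21 were higher in replicate 2 at E14, and the only zero was Crybb2 in E14 replicate 1. Lens genes differed within each age more than between ages, and none was called by edgeR or DESeq2 (1 had an unadjusted p under 0.05 in edgeR). Where leaving out both of these libraries moves a list's count of calls by more than 1.5 times, that count is given beside it.

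Of 21858 genes tested, 2382 were called (10.9%), meaning a Benjamini-Hochberg adjusted p under 0.05 in edgeR's quasi-likelihood test and a difference of at least 2-fold. Higher at E14 were 1643 (7.52%) and lower were 739 (3.38%), while the median log2 difference over all genes was 0.00. For comparison, the step from E11 to E12 gave 892 genes higher (4.08%) and 857 lower (3.92%), and the step from E14 to E16 called 1559 (7.13%), 1195 higher (5.47%) and 364 lower (1.67%), all with the same fit and thresholds. These steps share libraries with the comparison of E14 with E12. The number of genes called lower depended on single libraries. It was 383 without E14 replicate 1, and 448 with both libraries of high lens content left out. The number called higher was at least 1442 with any 1 of the 4 libraries left out.

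**Figure D1:**
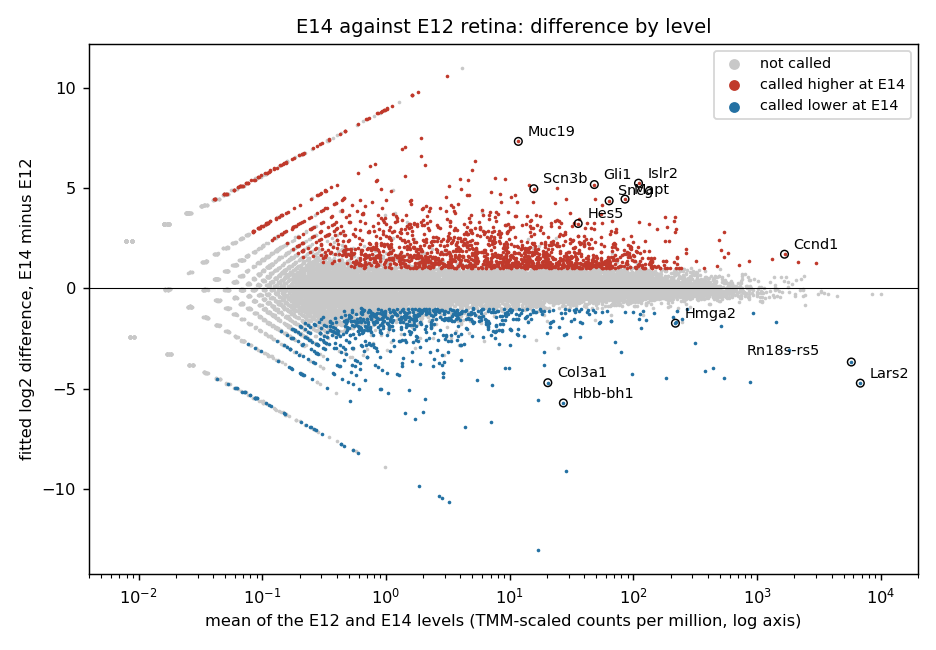
Fitted log2 difference between E14 and E12 (vertical axis) against the mean level of the 2 ages in TMM-scaled CPM (horizontal, log axis), 1 point per gene tested. The 1643 genes called higher are red, the 739 called lower are blue, the rest are grey, and circled genes are described in the text. The most abundant features in the plot that were called lower, Lars2 and Rn18s-rs5, lie at its right edge.

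The largest rises among genes of at least 20 CPM included several genes of excitable and axon-bearing cells. Muc19, of the mucin family, measured 0.220 and 0.0679 CPM at E12 and 24.6 and 22.0 CPM at E14, a log2 difference of 7.32 ± 0.48 (SE, edgeR adjusted p 1.02e-08). Islr2, a surface protein with leucine-rich repeats on growing axons, measured 6.42 and 4.92 CPM at E12 and 226 and 202 CPM at E14, a difference of 5.24 ± 0.24 (3.46e-10). The E14 libraries of both genes were close together and far above both E12 libraries, and Muc19 was under 0.3 CPM at E12. The sodium channel subunit Scn3b had the smallest p-value of all rises, at 0.844 and 1.09 CPM at E12 and 33.0 and 27.7 CPM at E14 and a log2 difference of 4.97 ± 0.15 (edgeR adjusted p 1.66e-12). Scn9a, a pore-forming sodium channel subunit, went from 0.917 and 0.679 to 30.7 and 25.4 CPM. The membrane trafficking genes Syt4 (a synaptotagmin) and Rph3a (rabphilin) rose by 4.98 ± 0.32 and 4.32 ± 0.26 on the log2 scale. The rule that named these genes required that the ages not overlap. Nrn1, which encodes the neurite growth protein neuritin, measured 1.54 and 0.170 CPM at E12 and 24.1 and 18.4 CPM at E14, and its E12 libraries differed from each other more, in proportion, than its E14 libraries did. Ret, the receptor kinase for GDNF-family ligands, measured 5.80 and 2.75 CPM at E12 and 103 and 84.9 CPM at E14, and Nell2, a secreted neuronal glycoprotein, measured 2.79 and 2.205 CPM at E12 and 61.6 and 46.6 CPM at E14. Their log2 differences were 4.46 ± 0.49 and 4.44 ± 0.27. Rises with small p-values but of smaller size were those of the tubulin gene Tubb2a (17.6 and 16.8 at E12 and 121 and 104 at E14, log2 difference 2.71 ± 0.11), the imprinted membrane protein gene Nnat (109 and 113 at E12 and 443 and 408 at E14, 1.94 ± 0.09) and Rundc3a (5.39 and 4.48 at E12 and 45.1 and 49.3 at E14, 3.26 ± 0.16).

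Of 20 genes of neuronal commitment tested, 11 were called higher and 1 lower, against 7.52% and 3.38% of all genes, and the median log2 difference was 1.33. With any 1 library left out 8 or 9 were called higher, and 7 in a fit of the 8 embryonic libraries. Atoh7, the bHLH factor required for ganglion cell formation, measured 2.46 and 5.26 CPM at E12 and 28.9 and 34.5 CPM at E14, a difference of 3.03 ± 0.76 (edgeR adjusted p 0.00737). Both E14 libraries were above both E12 libraries. At E16 the mean was 10.5 CPM, a change from E14 that was not called (log2 difference -1.59, edgeR adjusted p 0.144). The bHLH factors Neurod4 (13.97 and 8.62 at E12 and 78.3 and 58.7 at E14, difference 2.60 ± 0.42) and Olig2 (1.65 and 1.02 at E12 and 10.5 and 9.94 at E14, 2.94 ± 0.43) rose too, and each had a higher mean at E16 than at E14. Neurog2, which acts in progenitors about to form neurons, measured 47.6 and 35.7 CPM at E12 and 89.5 and 79.0 CPM at E14. Neurod1, of photoreceptor and amacrine fates, measured 48.5 and 35.2 CPM at E12 and 109 and 99.1 CPM at E14. In each of these the ages did not overlap, but neither passed the test (1.02 ± 0.70, edgeR adjusted p 0.323, and 1.32 ± 0.68, 0.179). Among genes switched on as cells leave the cycle, Btg2, an antiproliferative factor, rose by 1.36 ± 0.23, Hes6, an antagonist of Notch effectors, by 1.37 ± 0.23, Sox4 by 1.35 ± 0.12, the zinc finger factor Myt1 by 2.31 ± 0.46 and the somatostatin receptor Sstr2 by 1.69 ± 0.33. Sox11, the relative of Sox4, measured 599 and 536 CPM at E12 and 693 and 659.7 CPM at E14 and was not called.

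Several calls in this group rested on few libraries. The Atoh7 call was lost without E12 replicate 1 (log2 difference 2.60, edgeR adjusted p 0.0753). Calls for the homeobox gene Dlx2 (1.53) and the growth arrest gene Gadd45g (1.28) were lost on leaving out any 1 of the 4 libraries, with log2 differences of 1.39 to 1.69 and 1.21 to 1.37 and edgeR adjusted p of 0.0602 to 0.114 and 0.0854 to 0.129. The 1 gene called lower, Neurod2, was under 0.5 CPM in each of the 4 libraries (0.477 and 0.170 at E12 and 0.0638 and 0.0710 at E14), and its call was lost without E12 replicate 1 (log2 difference -1.28, adjusted p 0.375), E14 replicate 1 (-2.10, 0.081) or E14 replicate 2 (-2.24, 0.0562).

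Ganglion cell transcription factors showed the broadest rise among the regulators. Of 18 tested, 15 were called higher and none lower, against 7.52% and 3.38% of all genes, and the median log2 difference was 2.79. With any 1 library left out 14 or 15 were called higher. The LIM factor Isl1, which acts with the POU factors in ganglion cells, measured 51.3 and 33.7 CPM at E12 and 176 and 175 CPM at E14, a difference of 2.05 ± 0.47 (edgeR adjusted p 0.00411). Pou4f2, the POU factor of early ganglion cells, measured 58.9 and 35.8 CPM at E12 and 157 and 146 CPM at E14 and Pou4f1 measured 10.7 and 7.26 CPM at E12 and 36.3 and 33.5 CPM at E14. The E14 libraries of all these genes were close together and above both E12 libraries. For Pou4f1 the difference was 1.96 ± 0.15 (5.49e-08). For Pou4f2 it was 1.68 ± 0.56 (0.0368), and that call was lost on leaving out any 1 of the 4 libraries (log2 1.38 to 2.09, edgeR adjusted p 0.0657 to 0.192) and with DESeq2 (1.65, adjusted p 0.2485). Pou4f3 had no counts in either E12 library and measured 2.46 and 2.02 CPM at E14, at least 42.6-fold higher against a floor of 3 counts over the E12 libraries. Isl2 had 3 counts over the E12 libraries and measured 1.72 and 1.81 CPM at E14. At E16 the means of Pou4f3 and Isl2 were 12.8 and 12.3 CPM.

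The early B-cell factors Ebf3 (33.3 and 19.7 at E12 and 259 and 222 at E14, difference 3.19 ± 0.20), Ebf1 (21.3 and 14.08 at E12 and 135 and 112 at E14, 2.80 ± 0.34) and Ebf2 (3.01 and 1.66 at E12 and 7.09 and 6.89 at E14, 1.58 ± 0.27) rose, and Ebf4 (4.66 and 6.45 at E12 and 10.18 and 10.4 at E14, 0.89 ± 0.19) stayed under the 2-fold threshold. These helix-loop-helix factors act in postmitotic ganglion cells. Among the Iroquois homeobox genes, Irx6 (0.367 and 0.339 at E12 and 9.61 and 8.41 at E14) and Irx5 (0.844 and 0.645 at E12 and 12.6 and 9.59 at E14) rose by 4.66 ± 0.19 and 3.90 ± 0.43, and Irx2 and Irx3 by 2.18 ± 0.27 and 2.77 ± 0.49. Irx3 had measured 1.68 and 8.09 CPM at E11 against 0.844 and 0.814 at E12 and 6.16 and 5.18 at E14, and Irx5 1.51 and 6.105 CPM at E11, so both were lower at E12 than at E11 and E14. Irx1, by contrast, measured 0.110 and 0.238 CPM at E12 and 0.128 and 0.178 CPM at E14, with overlapping ages. Barhl2, a homeobox factor of ganglion and amacrine subtypes, measured 1.504 and 0.882 CPM at E12 and 12.8 and 15.3 CPM at E14 (3.56 ± 0.31, edgeR adjusted p 2.63e-07). The T-box gene Eomes of later ganglion cell types rose from 0.440 and 0.170 to 3.48 and 2.13 CPM and averaged 55.0 CPM at E16, while its relative Tbr1 measured 0.550 and 0.780 CPM at E12 and 0.734 and 0.426 CPM at E14, with overlapping ages.

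Structural, surface and transmitter genes of young ganglion cells had the largest share of calls among the lists described here. Of 28 tested, 25 were called higher and none lower (7.52% and 3.38% of all genes), the median log2 difference was 2.81, and 23 to 25 were called higher whichever library was left out. Their summed level was 1938 and 1247 CPM at E12 and 8214 and 7567 CPM at E14. Replicate 1 was higher than replicate 2 in 23 of the 28 at E12, and also in 23 of the 28 at E14. At E12 this placed replicate 1 nearer to the E14 libraries. Mapt, which encodes the axonal microtubule protein tau, measured 9.32 and 5.70 CPM at E12 and 178 and 149 CPM at E14, a difference of 4.45 ± 0.20 (edgeR adjusted p 2.84e-10). Sncg, gamma-synuclein, a ganglion cell marker, measured 7.85 and 4.004 CPM at E12 and 135 and 108 CPM at E14 (4.36 ± 0.22). The growth cone phosphoprotein gene Dpysl3 measured 182 and 135 CPM at E12 and 865 and 801 CPM at E14 (2.39 ± 0.12). The E14 libraries of each were close together and the E12 libraries further apart in proportion. The 3 members not called, named here after their values were seen, were Rbpms (35.9 and 40.6 at E12 and 71.5 and 68.9 at E14, difference 0.88 ± 0.18), an RNA-binding protein of ganglion cells, Thy1, a surface marker of mature ganglion cells, and the nicotinic receptor subunit Chrna6. Thy1 had 3 counts at E12 and was at most 0.0355 CPM at E14, then averaged 9.82 CPM at E16. Chrna6 measured 0.0734 and 0.0339 CPM at E12 and 0.0638 and 0.106 CPM at E14 and 6.56 CPM as its E16 mean.

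**Figure D2:**
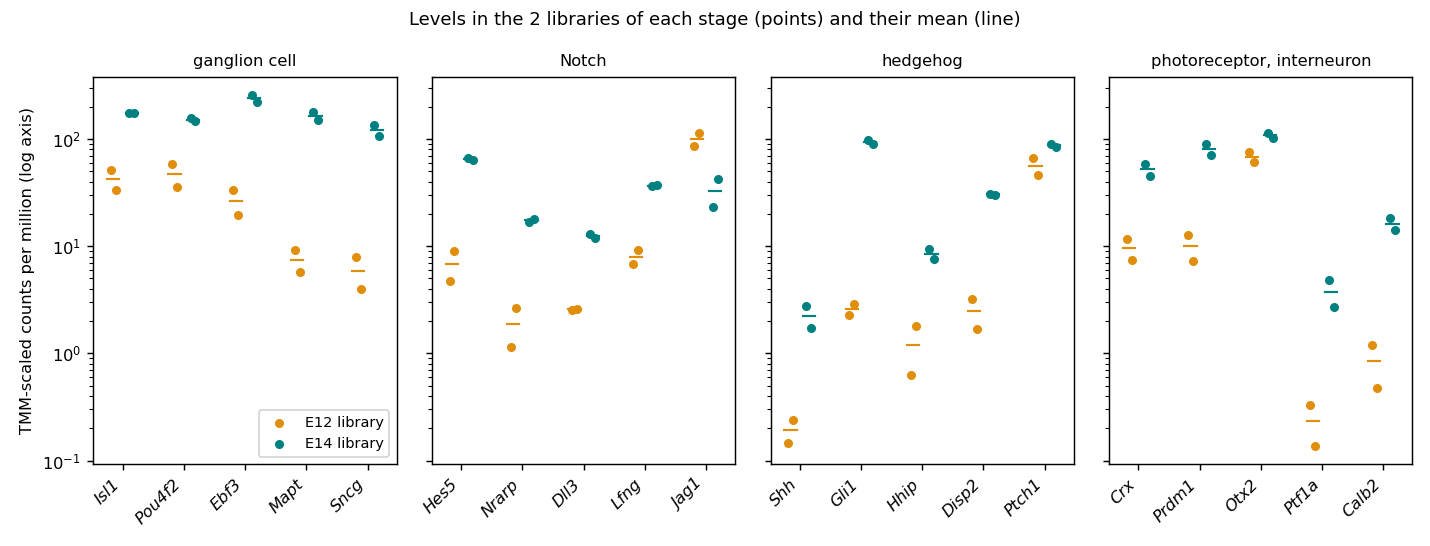
TMM-scaled CPM (vertical, log axis) of 20 genes in the 2 E12 libraries (orange) and the 2 E14 libraries (teal), with a line at each mean, in 4 groups. In 19 of the genes shown all E14 points lie above the E12 points, and Jag1 lies below. Ptch1 and Otx2 are shown as members that were not called.

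Axon guidance genes moved in part. Of 36 tested, 11 were called higher and 2 lower, with a median log2 difference of 0.48, against 7.52% and 3.38% of all genes, and the calls lower were 0 or 1 with any 1 library left out and 0 without both libraries of high lens content. The ephrin receptor Epha8 measured 0.293 and 0.339 CPM at E12 and 15.04 and 14.5 CPM at E14, a difference of 5.52 ± 0.37 (edgeR adjusted p 1.45e-08). Nrp1, the neuropilin that binds class 3 semaphorins and VEGF, measured 11.9 and 14.18 CPM at E12 and 63.2 and 60.2 CPM at E14 (2.24 ± 0.14), and the repellent Slit1 measured 18.2 and 10.18 CPM at E12 and 61.4 and 68.4 CPM at E14 (2.196 ± 0.40). The ages were clearly apart in all of these. The 2 called lower, named after their values were seen, were the secreted semaphorins Sema3a (55.8 and 110.4 at E12 and 39.4 and 37.1 at E14, -1.12 ± 0.23) and Sema3c (3.26 and 2.68 at E12 and 1.37 and 1.03 at E14, -1.30 ± 0.46).

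Lists of neuronal maturation held many genes that rose, against 7.52% higher and 3.38% lower over all genes. Of 15 RNA-binding and splicing regulators, 8 were called higher and none lower (median 1.87), with Celf6 (0.404 and 0.271 at E12 and 3.74 and 3.55 at E14, difference 3.43 ± 0.36), Celf5 (2.05 and 1.63 at E12 and 16.16 and 16.8 at E14, 3.16 ± 0.17) and the microexon regulator Srrm3 (4.70 and 3.46 at E12 and 31.2 and 31.0 at E14, 2.93 ± 0.28) changed most. Of 26 synaptic vesicle and adhesion genes, 18 were called higher and none lower (median 1.48). The vesicle fusion gene Snap25 measured 9.79 and 6.21 CPM at E12 and 83.3 and 69.7 CPM at E14 (3.26 ± 0.17), and the complexin Cplx1 measured 0.624 and 0.102 CPM at E12 and 6.48 and 6.25 CPM at E14 (4.15 ± 0.32). Transmitter receptor subunits gave 14 higher and 1 lower of 22 (median 1.28). The glycine receptor subunit Glra2 had no counts at E12 and measured 3.93 and 2.59 CPM at E14, at least 62.3-fold higher against the floor, and Chrnb3 measured 0.183 and 0.136 CPM at E12 and 1.63 and 1.49 CPM at E14 (3.27 ± 0.33). The receptor subunit called lower was the AMPA receptor gene Gria3 (7.37 and 17.7 at E12 and 3.16 and 2.56 at E14), named after its values were seen. Voltage-gated channel subunits gave 9 higher and 1 lower of 22 (median 0.54, none lower without both libraries of high lens content), among them Scn3b, given above, and Scn3a (7.70 and 10.08 at E12 and 78.5 and 65.0 at E14, 3.01 ± 0.39). In the step from E14 to E16, which shares the E14 libraries, 11 of the synaptic genes, 12 of the receptors and 8 of the channels were called higher (5.47% of all genes).

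Photoreceptor genes held calls in both directions. Of 26 tested, 14 were called higher and 2 lower, against 7.52% and 3.38% of all genes, with a median log2 difference of 1.33. Otx2, the homeobox factor at the head of photoreceptor fate, measured 76.1 and 60.6 CPM at E12 and 115 and 102 CPM at E14, a difference of 0.67 ± 0.23 that stayed under 2-fold (edgeR adjusted p 0.0442). Its target Crx measured 11.7 and 7.36 CPM at E12 and 58.8 and 45.4 CPM at E14 (2.45 ± 0.21, 1.66e-07), and Prdm1, which favours photoreceptor over bipolar fate, measured 12.7 and 7.33 CPM at E12 and 89.9 and 71.4 CPM at E14 (3.01 ± 0.19). The cone receptor Thrb rose by 1.36 ± 0.22, Rxrg, its partner in cones and also a ganglion cell gene, by 2.89 ± 0.32, and the LIM factor Lhx4 by 3.87 ± 0.22 (0.367 and 0.407 at E12 and 5.81 and 5.61 at E14). Both E14 libraries exceeded both E12 libraries for all these factors. The rod factor Nrl had 7 counts over the E12 libraries and measured 0.926 and 1.06 CPM at E14 (2.97 ± 0.32), and Nr2e3, which acts below it, was at most 0.224 CPM in any of the 4 libraries. Cone phototransduction genes were low throughout. Pde6c had 3 counts at E12 and measured 3.32 and 2.24 CPM at E14, Gngt2 measured 0.404 and 0.339 CPM at E12 and 4.21 and 2.13 CPM at E14, Gnb3 0.367 and 1.60 CPM at E12 and 6.03 and 4.65 CPM at E14 and Cngb3 0.550 and 0.984 CPM at E12 and 5.08 and 2.80 CPM at E14. The last 3 rose by 3.10 ± 0.36, 2.42 ± 0.32 and 2.35 ± 0.47. Cdhr1, a cadherin of outer segments, measured 3.998 and 1.12 CPM at E12 and 25.5 and 20.1 CPM at E14 (3.17 ± 0.29). The short-wavelength opsin Opn1sw was at most 0.192 CPM in these libraries and averaged 6.60 CPM at E16. The members called lower, Rcvrn (0.734 and 0.407 at E12 and 0.0638 and 0.0710 at E14) and Guca1a (0.404 and 0.577 at E12 and 0.0319 and 0.106 at E14), calcium sensors of mature photoreceptors, were under 1 CPM in each of the 4 libraries. Further rod genes outside the list were looked at after these values were seen. Gnat1 and Prph2, picked from among them, were lower at E14. They do not stand for rod genes as a set, and Nrl, given above, went the other way. The rod transducin Gnat1 measured 18.2 and 7.70 CPM at E12 and 1.53 and 3.12 CPM at E14 (-2.48 ± 0.31, edgeR adjusted p 1.72e-05) and the outer segment protein Prph2 2.38 and 1.12 CPM at E12 and 0.0319 and 0.0710 CPM at E14 (-5.00 ± 0.48). At E11 Gnat1 measured 2.46 and 2.74 CPM, so its E12 libraries stood above both neighbouring ages, and both of these genes reach their highest mean of the series after birth. Rom1, an outer segment protein that is on the list, measured 3.08 and 3.63 CPM at E12 and 3.42 and 3.83 CPM at E14 and was not called. Why rod transcripts were present at E12 was not tested. In the step from E14 to E16, 21 of the 26 were called higher (5.47% of all genes).

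Horizontal and amacrine genes gave 10 calls higher and none lower of 20 tested (median 1.28), against 7.52% and 3.38% of all genes. Ptf1a, the bHLH factor that commits cells to both fates, measured 0.330 and 0.136 CPM at E12 and 4.85 and 2.70 CPM at E14, a difference of 4.01 ± 0.52 (edgeR adjusted p 7.02e-05). Prdm13, of amacrine cells, measured 1.47 and 0.238 CPM at E12 and 19.9 and 19.3 CPM at E14 (4.54 ± 0.38), and Lhx1, of horizontal cells, had no counts at E12 and measured 0.415 and 1.95 CPM at E14, at least 21.6-fold higher against the floor. The ages did not overlap for any of these, but the E14 libraries of Lhx1 differed from each other by more than their smaller value. Foxn4, which lies upstream of Ptf1a, measured 104 and 85.5 CPM at E12 and 182 and 199 CPM at E14 and was not called (1.01 ± 0.57, 0.224). Of the Onecut factors, which support horizontal and ganglion cells, Onecut3 rose by 2.73 ± 0.33, Onecut2 measured 177 and 124 CPM at E12 and 284 and 269 CPM at E14 and stayed under 2-fold, and Onecut1 measured 14.6 and 15.8 CPM at E12 and 43.2 and 45.6 CPM at E14. The Onecut1 call (1.54) was lost on leaving out any 1 of the 4 libraries (log2 1.49 to 1.62, edgeR adjusted p 0.0726 to 0.116) and with DESeq2 (1.51, adjusted p 0.079). The calcium-binding protein Calb2 measured 1.21 and 0.475 CPM at E12 and 18.3 and 14 CPM at E14 (4.28 ± 0.39). Of the inhibitory transmitter genes, the GABA-synthesising enzyme Gad2 (7.89 and 7.87 at E12 and 38.9 and 31.5 at E14, 2.16 ± 0.24) rose, the vesicular transporter Slc32a1 had 1 count over the E12 libraries and measured 0.638 and 0.923 CPM at E14, and Gad1 was at most 0.183 CPM in any of the 4 libraries. Tfap2a (2.13 and 2.78 at E12 and 3.16 and 2.98 at E14) and Tfap2b (13.6 and 18.9 at E12 and 20.5 and 19.8 at E14), which act below Ptf1a, were not called, and both were called higher in the step from E14 to E16.

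Of 15 progenitor genes, 3 were called higher and none lower (median 0.28), against 7.52% and 3.38% of all genes. These were Fgf15 (558 and 399 at E12 and 1362 and 1134 at E14, difference 1.38 ± 0.23), a growth factor made by progenitors, Sox9 (19.7 and 17.5 at E12 and 44.8 and 40.6 at E14, 1.199 ± 0.22), and the eye field factor Rax (40.3 and 56.6 at E12 and 93.6 and 108 at E14, 1.05 ± 0.22), whose difference was under 2-fold without E12 replicate 1 (0.84) or E14 replicate 2 (0.96). None of 23 mitosis genes was called by edgeR or DESeq2 (2 had an unadjusted p under 0.05 in edgeR, both lower), and their differences ran from -0.45 to 0.19. Of 28 DNA replication genes only Ccne1, the cyclin of S phase entry, was called, at 33.0 and 45.1 CPM at E12 and 14.8 and 18.6 CPM at E14 and a difference of -1.22 ± 0.21 (edgeR adjusted p 3.53e-04), and it was under 2-fold without E12 replicate 2 (-0.97). Genes of the G1 phase and of cycle exit gave 4 calls higher and none lower of 11. Ccnd1, the main D-type cyclin of the retina, measured 783 and 782 CPM at E12 and 2610 and 2480 CPM at E14 (1.70 ± 0.21, 1.33e-05). Ccnd2 was uneven between the E12 libraries (204 and 469.9 at E12 and 231 and 258 at E14) and was not called, and the Ccnd3 call (43.4 and 92.7 at E12 and 139.9 and 147 at E14, 1.08 ± 0.29) was lost without E12 replicate 1 (0.64, adjusted p 0.138) or E14 replicate 2 (1.05, 0.0551). Of the inhibitors of cyclin-dependent kinases, Cdkn2c rose by 1.36 ± 0.14 (3.70 and 4.14 at E12 and 9.64 and 10.6 at E14), while Cdkn1b (85.9 and 91.8 at E12 and 128 and 117 at E14, 0.47 ± 0.12), Cdkn1c (60.7 and 98.8 at E12 and 61.6 and 75.0 at E14, -0.22 ± 0.18) and Cdkn2d (13.3 and 12.15 at E12 and 21.6 and 21.8 at E14, 0.77 ± 0.14) were not called. Cdk5r1, the activator of the neuronal kinase Cdk5, measured 14.9 and 13.1 CPM at E12 and 80.8 and 74.0 CPM at E14 (2.47 ± 0.10, 1.33e-10).

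Notch pathway genes gave 11 calls higher and 1 lower of 24 tested (median 1.04), against 7.52% and 3.38% of all genes. Without both libraries of high lens content 7 were called higher. In this pathway ligands of the Delta and Jagged families on one cell activate Notch receptors on the next, fringe enzymes tune the contact, and the freed receptor domain switches on Hes and Hey repressors with the DNA-binding partner Rbpj. Among the ligands, Dll3 measured 2.57 and 2.61 CPM at E12 and 12.9 and 11.9 CPM at E14 (2.26 ± 0.29, edgeR adjusted p 1.99e-05) and Jag2 measured 1.72 and 2.61 CPM at E12 and 12.07 and 10.97 CPM at E14 (2.40 ± 0.32), after 5.78 and 10.5 CPM at E11. Jag1 went the other way, at 85.9 and 114 CPM at E12 and 23.0 and 42.0 CPM at E14 (-1.62 ± 0.20, 1.38e-05). Dll1 measured 33.8 and 34.1 CPM at E12 and 73.1 and 67.2 CPM at E14 and was not called (1.05 ± 0.51, 0.155), although its ages did not overlap. The noncanonical ligand Dner measured 4.26 and 2.41 CPM at E12 and 29.2 and 24.1 CPM at E14 (3.01 ± 0.21). Of the receptors, Notch2 (76.8 and 77.3 at E12 and 77.7 and 84.4 at E14, 0.07 ± 0.13) and Notch3 (88.5 and 104 at E12 and 119 and 146 at E14, 0.46 ± 0.15) were not called. Among the fringe enzymes Lfng measured 6.79 and 9.13 CPM at E12 and 36.2 and 37.2 CPM at E14 (2.204 ± 0.26, 9.02e-06) and Mfng 26.1 and 27.1 CPM at E12 and 63.2 and 68.2 CPM at E14 (1.30 ± 0.28), while Rfng stayed under 2-fold (0.56 ± 0.11).

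The targets split. Hes5 measured 4.70 and 9.02 CPM at E12 and 65.8 and 63.5 CPM at E14, a log2 difference of 3.23 ± 0.48 (edgeR adjusted p 1.00e-04), and the feedback inhibitor Nrarp measured 1.14 and 2.65 CPM at E12 and 17.0 and 17.8 CPM at E14 (3.19 ± 0.45, 5.15e-05), after 6.50 and 5.35 CPM at E11. Jag2 and Nrarp were lower at E12 than at E11 in the same fit (log2 difference -1.90, edgeR adjusted p 7.39e-04, and -1.64, 0.0134). Hes1 measured 77.5 and 78.3 CPM at E12 and 95.4 and 93.4 CPM at E14, with a difference of 0.28 ± 0.16 that was not called. The E14 libraries were above both E12 libraries in all these genes, and by far in Hes5 and Nrarp. Hey1 (27.0 and 24.4 at E12 and 40.4 and 39.7 at E14) and Hey2 (1.80 and 2.002 at E12 and 2.203 and 2.77 at E14) were not called. Rbpj itself measured 364 and 306 CPM at E12 and 403 and 362 CPM at E14, and the ligand-regulating enzyme Mib1 380.5 and 357 CPM at E12 and 322 and 328 CPM at E14, both not called. Numbl, an inhibitor of Notch, rose by 1.99 ± 0.22 (14.3 and 12.01 at E12 and 46.6 and 57.7 at E14), and its relative Numb had overlapping ages (68.1 and 53.8 at E12 and 53.1 and 64.7 at E14). The other calls in the list were lost without single libraries. Notch1 (153 and 54.8 at E12 and 234 and 296 at E14, 1.35 ± 0.38) lost its call without E12 replicate 2 (0.81, adjusted p 0.144) or E14 replicate 2 (1.19, 0.0965). For Dll4 (32.7 and 20.1 at E12 and 57.2 and 59.1 at E14, 1.14 ± 0.32) this happened without E12 replicate 2 (0.84, 0.138), E14 replicate 1 (1.17, 0.0526) or E14 replicate 2 (1.12, 0.0644). Heyl (7.59 and 7.02 at E12 and 17.3 and 23.2 at E14, 1.47 ± 0.42) lost its call without E12 replicate 1 (1.53, 0.0704), E12 replicate 2 (1.43, 0.0814) or E14 replicate 2 (1.25, 0.108), and with DESeq2 (1.44, adjusted p 0.0647). All adjusted p-values here are edgeR's unless DESeq2 is named.

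The upstream sequences of 3 of these risers are shown because each holds letters that bind factors of the pathways described: GTGGGAA, a core of sites bound by Rbpj, or the E-boxes CAGCTG and CAGATG, which bHLH factors bind. The 250 bases before the RefSeq start of Hes5 (GRCm38.p6, chr4:154960673-154960922, plus strand), Lfng (chr5:140607091-140607340, plus strand) and Atoh7 (chr10:63099535-63099784, plus strand) follow, with GTGGGAA, its reverse complement, CAGCTG or CAGATG in capitals. The last 21 bases of the Lfng window lie inside the gene as the files place it (chr5:140607320-140615545), and the Atoh7 window ends 371 bases before the gene as placed there (chr10:63100156-63100605).
Hes5: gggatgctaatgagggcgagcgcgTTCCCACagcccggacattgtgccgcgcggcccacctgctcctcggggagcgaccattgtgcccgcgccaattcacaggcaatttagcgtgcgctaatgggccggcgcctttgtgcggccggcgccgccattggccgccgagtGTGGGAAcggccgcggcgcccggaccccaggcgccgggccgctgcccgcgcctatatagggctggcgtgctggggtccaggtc
Lfng: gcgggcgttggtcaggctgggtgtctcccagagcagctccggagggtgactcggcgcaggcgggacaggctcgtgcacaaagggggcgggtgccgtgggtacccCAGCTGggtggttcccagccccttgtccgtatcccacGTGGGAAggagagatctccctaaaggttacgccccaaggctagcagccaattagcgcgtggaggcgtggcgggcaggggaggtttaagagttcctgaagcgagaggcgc
Atoh7: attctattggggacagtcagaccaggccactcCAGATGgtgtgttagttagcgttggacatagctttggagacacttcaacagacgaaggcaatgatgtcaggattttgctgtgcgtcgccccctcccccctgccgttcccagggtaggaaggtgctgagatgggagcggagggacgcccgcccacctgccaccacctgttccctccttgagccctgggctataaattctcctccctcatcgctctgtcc

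In Hes5 the GTGGGAA letters start 83 bases before the start, and lie on the other strand 226 bases before it. Lfng has them 109 bases before its start and CAGCTG 146 bases before, and Atoh7 has CAGATG 218 bases before its start. Such letters are common. Of 10900 tested genes with a single RefSeq promoter, 5.5% held GTGGGAA on either strand in these 250 bases, as did 5.84% of the 839 called higher and 3.99% of the 326 called lower. CAGCTG stood in 12.8% of all, 16.8% of those higher and 15% of those lower, and CAGATG in 10.8%, 12.9% and 14.7%. The other motifs searched were CCAAT (35.8%, 33% and 32.5%), TTTGAA (11.3%, 8.1% and 15.6%) and ATTAAT (2.39%, 1.79% and 2.76%), in the same order. The 3 promoters were chosen for holding the letters. Of 15 Notch pathway genes with a single promoter 3 held GTGGGAA, 2 of them among the 9 called higher, and the third, Hey2, was not called. Of 14 genes of neuronal commitment 2 held CAGATG, Atoh7 and Neurod2. A match is a description of the letters and not of a site in use.

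Hedgehog genes gave 5 calls higher and 1 lower of 16 tested (median 0.51), against 7.52% and 3.38% of all genes. Hedgehog ligands bind Patched receptors, which releases Smoothened and lets Gli factors act, and Gli1, Ptch1 and Hhip are themselves targets of the signal. The ligand Shh measured 0.147 and 0.238 CPM at E12 and 2.75 and 1.74 CPM at E14, a difference of 3.51 ± 0.44 (edgeR adjusted p 1.41e-05), while Ihh and Dhh were under 0.4 CPM in each of the 4 libraries. Gli1 measured 2.27 and 2.92 CPM at E12 and 97.5 and 90.4 CPM at E14, a difference of 5.17 ± 0.56 (2.95e-06). Its E14 libraries were close together and far above E12, but at E11 it measured 6.11 and 39.7 CPM, so that the lowest level in the embryonic series was at E12. Hhip, which binds and limits the ligand, measured 0.624 and 1.80 CPM at E12 and 9.32 and 7.67 CPM at E14 (2.79 ± 0.38). Ptch1 measured 66.2 and 46.2 CPM at E12 and 90.7 and 84.4 CPM at E14, and its difference of 0.64 ± 0.22 stayed under 2-fold. Disp2, of the family that releases hedgehog ligand, measured 3.23 and 1.70 CPM at E12 and 30.8 and 30 CPM at E14 (3.63 ± 0.29), and its relative Disp1 measured 11.15 and 13.8 CPM at E12 and 15.4 and 17.2 CPM at E14. The signal mediators Smo (0.13 ± 0.10), Sufu (0.08 ± 0.14), Gli2 (0.81 ± 0.35) and Gli3 (-0.38 ± 0.15) were not called. Gas1, a coreceptor, was called lower (57.2 and 79.1 at E12 and 26.9 and 34.2 at E14, -1.16 ± 0.17) but was under 2-fold without E12 replicate 2 (-0.89) or E14 replicate 1 (-0.99), and the coreceptors Cdon (560.1 and 633 at E12 and 353 and 427 at E14, -0.61 ± 0.14) and Boc (17.8 and 16.5 at E12 and 16.9 and 18.4 at E14, 0.04 ± 0.17) were not called.

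**Figure D3:**
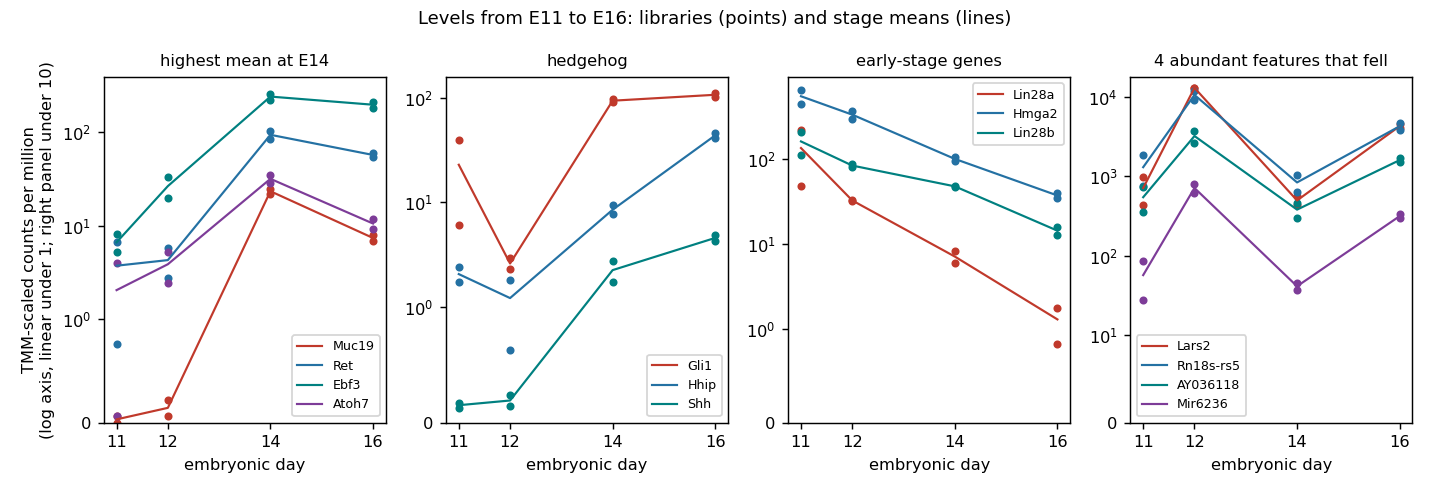
TMM-scaled CPM of named genes in the 2 libraries (points) and as stage means (lines) at embryonic days 11, 12, 14 and 16, on a log axis that is linear near 0. Muc19, Ret, Ebf3 and Atoh7 have their highest mean at E14, and of their falls to E16 only that of Muc19 was called. Gli1 is lowest at E12, and Lin28a, Lin28b and Hmga2 decline over all 4 ages. The 4 features in the right panel are high at E12 and E16 and low at E11 and E14.

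Other signalling lists gave few calls. Of 17 FGF genes 2 were called higher and 1 lower (median 0.27), near the shares over all genes (7.52% and 3.38%). Fgf3, a ligand, measured 5.10 and 3.26 CPM at E12 and 45.8 and 39.4 CPM at E14 (3.35 ± 0.24, edgeR adjusted p 2.21e-08), and Fgf15 is given above. The receptor Fgfr2 measured 34.5 and 43.6 CPM at E12 and 9.77 and 17.9 CPM at E14 (-1.50 ± 0.35), a call lost without E14 replicate 1 (-1.12, adjusted p 0.0745). Of 20 Wnt genes none was called higher and 4 were called lower (2 to 4 with any 1 library left out). The secreted modulator Dkk2 measured 7.37 and 13.6 CPM at E12 and 0.160 and 0.746 CPM at E14 (-4.55 ± 0.60, 3.00e-05) and the ligand Wnt2b measured 8.18 and 11.7 CPM at E12 and 2.71 and 3.20 CPM at E14 (-1.75 ± 0.18). The other calls were for Fzd1 (38.4 and 51.1 at E12 and 19.5 and 23.0 at E14), a Wnt receptor named after its values were seen, and for the inhibitor Dkk1 (6.38 and 7.97 at E12 and 2.203 and 2.77 at E14, -1.53 ± 0.48), which was lost on leaving out any 1 of the 4 libraries (log2 -1.69 to -1.35, edgeR adjusted p 0.0532 to 0.16). The E12 levels of all 4 exceeded both E14 libraries. Among 25 patterning genes 2 were called higher and 3 lower, and with any 1 library left out 1 or 2 higher and 2 to 4 lower. Aldh1a2 (3.41 and 5.63 at E12 and 0.128 and 0.497 at E14, -3.86 ± 0.64) and Aldh1a1 (2119 and 2212 at E12 and 609 and 742 at E14, -1.68 ± 0.26), retinaldehyde dehydrogenases that make retinoic acid, were lower, and so was Aldh1a7 of the same family (121 and 124 at E12 and 16.7 and 22.0 at E14, -2.67 ± 0.19), which led the falls by p-value among genes of at least 20 CPM. The inhibitory factor Id4 measured 5.83 and 4.99 CPM at E12 and 19.6 and 16.8 CPM at E14 (1.75 ± 0.16).

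Of 16 genes of early or late progenitor competence tested, 2 were called lower and none higher (median -0.15), against 3.38% and 7.52% of all genes. The RNA-binding protein Lin28a, which blocks maturation of let-7 microRNAs, measured 31.8 and 33.5 CPM at E12 and 6.03 and 8.17 CPM at E14 (-2.20 ± 0.49, edgeR adjusted p 0.00316), and Hmga2, a chromatin protein of early progenitors and a let-7 target, measured 302 and 370.2 CPM at E12 and 94.8 and 107 CPM at E14 (-1.74 ± 0.16, 3.44e-07). All E14 libraries were below both E12 libraries. Lin28b (80.1 and 88.4 at E12 and 47.4 and 48.4 at E14, -0.82 ± 0.20) and Trim71 (86.2 and 74.7 at E12 and 42.5 and 45.9 at E14, -0.86 ± 0.23) passed the adjusted p but stayed under 2-fold. Igf2bp1 (276 and 273 at E12 and 281 and 325 at E14), Ikzf1 (4.88 and 2.92 at E12 and 2.30 and 1.88 at E14) and Casz1 (65.4 and 76.8 at E12 and 86.1 and 101 at E14), and the late factors Nfia (4.07 and 8.96 at E12 and 6.74 and 4.79 at E14), Nfib (46.8 and 35.5 at E12 and 21.23 and 37.0 at E14) and Nfix (1.25 and 0.170 at E12 and 0.351 and 4.19 at E14), were not called. In the step from E14 to E16, 8 of the 16 were called lower (1.67% of all genes) and 1 higher, with Lin28a, Lin28b, Trim71 and Hmga2 among those lower.

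**Figure D4:**
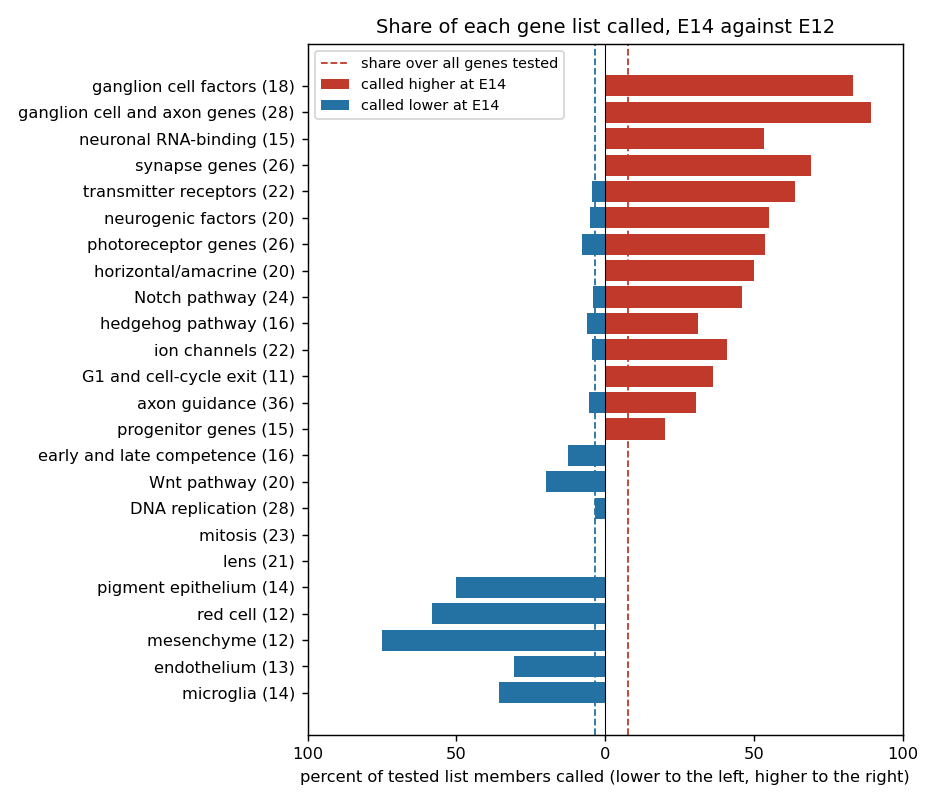
Percent of the tested members of 24 gene lists called higher (red, to the right) or lower (blue, to the left) at E14, with the number tested in brackets and dashed lines at the shares over all genes tested, 7.52% and 3.38%. The ganglion cell lists reach furthest right, and mesenchyme, red cell and pigment lists furthest left.

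The lists with the largest shares of members called lower mark other tissues of the eye and the blood. Over all genes 3.38% were called lower and 7.52% higher. Of 12 periocular mesenchyme markers 9 were called lower and none higher (median -3.72), and their summed level was 109 and 167 CPM at E12 and 31.6 and 40.1 CPM at E14. The collagen gene Col3a1 measured 32.2 and 46.0 CPM at E12 and 0.830 and 2.201 CPM at E14 (-4.70 ± 0.43, edgeR adjusted p 4.02e-07), Lum, a proteoglycan, 8.11 and 19.4 CPM at E12 and 0.192 and 0.781 CPM at E14 (-4.84 ± 0.75), and the mesenchymal factor Twist1 3.01 and 2.61 CPM at E12 and 0.0638 and 0 CPM at E14. Twist2 and Foxc2 were at 0 in E14 replicate 1 and Twist1 in E14 replicate 2. Of 12 red cell markers 7 were called lower (median -1.37), with a summed level of 1316 and 767 CPM at E12 and 192 and 383 CPM at E14 and none at 0. Both lists separated the ages in sum. The embryonic globins Hbb-y (713 and 378 at E12 and 57.8 and 108 at E14, -2.72 ± 0.37) and Hba-x (163 and 122 at E12 and 11.3 and 20.3 at E14, -3.17 ± 0.47), made by the first red cells, and the red cell anion exchanger Slc4a1 (40.0 and 30.9 at E12 and 2.78 and 2.31 at E14, -3.80 ± 0.67) fell. Hbb-bh1 fell by edgeR (67.1 and 39.4 at E12 and 0.798 and 1.24 at E14, -5.71 ± 0.96, adjusted p 0.00268), and the call was lost with DESeq2 (-5.74, adjusted p 0.612).

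Pigment markers gave 7 calls lower of 14 (median -1.54), against 3.38% of all genes. Their summed level was 246 and 433 CPM at E12 and 80.8 and 122 CPM at E14. Rpe65 was at 0 in E12 replicate 1 and E14 replicate 2. The pigment calls were 4 without E12 replicate 2 or without E14 replicate 1, and 3 without both libraries of high lens content. Trpm1, the most abundant member and also a gene of bipolar cells, measured 130.3 and 239 CPM at E12 and 34.3 and 59.8 CPM at E14 (-1.97 ± 0.39, edgeR adjusted p 0.00139), and the melanin enzymes Tyr (11.8 and 16.3 at E12 and 3.67 and 2.88 at E14, -2.10 ± 0.47) and Dct (14.6 and 23.1 at E12 and 3.129 and 6.25 at E14, -2.01 ± 0.42) fell. Of 14 microglia markers 5 were called lower, but 2 without E14 replicate 1, and 3 without both libraries of high lens content, with a summed level of 78.4 and 86.4 CPM at E12 and 41.8 and 48.7 CPM at E14. Of 13 endothelial markers 4 were called lower, from 1 without E14 replicate 1 or without E12 replicate 2 to 8 without E14 replicate 2, and without both libraries of high lens content 7 were lower and 1 higher. Their summed level was 168 and 163 CPM at E12 and 188 and 199.7 CPM at E14, most of it from Kdr, the VEGF receptor (129 and 97.5 at E12 and 174 and 163 at E14). The 12 other markers summed to 39.1 and 65.8 CPM at E12 and 14.08 and 37.1 CPM at E14. The falls of these lists went with the rises of neuronal genes in the same libraries, and the part of other tissues in the differences given above was not tested. Further falls with small p-values in the naming rule were those of Flrt3 (89.6 and 111 at E12 and 32.3 and 33.2 at E14, -1.61 ± 0.14), a surface protein that binds FGF receptors and latrophilins, Car14 (131 and 144 at E12 and 62.5 and 58.4 at E14, -1.18 ± 0.12), a membrane carbonic anhydrase, Tbx20 (37.2 and 42.4 at E12 and 8.97 and 12.25 at E14, -1.91 ± 0.20), a T-box factor, and Entpd4 (47.3 and 46.2 at E12 and 20.2 and 20.8 at E14, -1.19 ± 0.11). Parm1 (11.6 and 31.7 at E12 and 2.97 and 5.47 at E14, -2.37 ± 0.34) was among the larger falls.

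**Figure D5:**
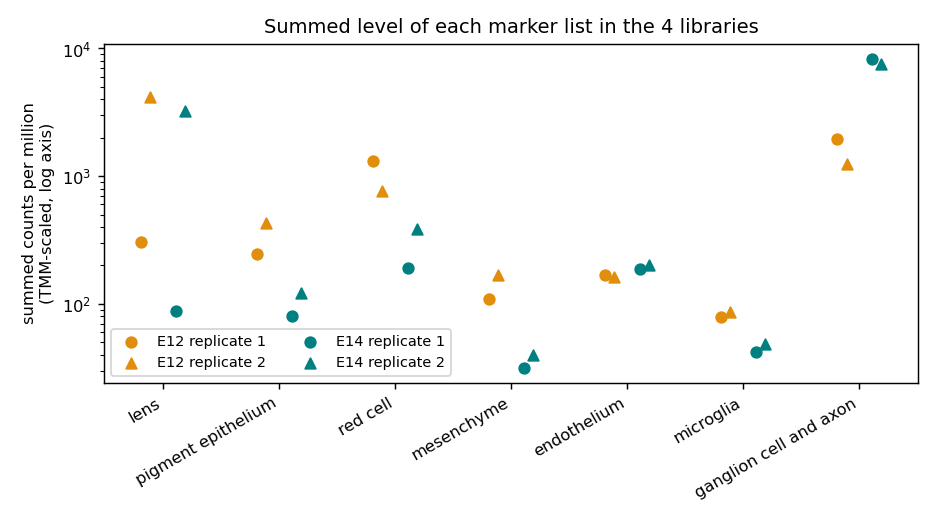
Summed TMM-scaled CPM (vertical, log axis) of 7 marker lists in E12 (orange) and E14 (teal), with circles for replicate 1 and triangles for replicate 2. The ages separate for pigment, red cell, mesenchyme, microglia and ganglion cell lists, lens separates the replicates in place of the ages, and the endothelial sums lie close together.

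Among the most abundant falls were 4 features that are on none of the lists. Lars2, annotated as the mitochondrial leucyl-tRNA synthetase, measured 13120 and 13190 CPM at E12 and 563 and 433 CPM at E14 (-4.72 ± 0.36, edgeR adjusted p 5.82e-08), and Rn18s-rs5, annotated as ribosomal RNA, measured 9252 and 12140 CPM at E12 and 1050 and 630.1 CPM at E14 (-3.67 ± 0.40). AY036118 (2680 and 3799 at E12 and 467 and 295 at E14, -3.09 ± 0.38), a lincRNA inside the coordinates of Rn18s-rs5 whose reads cannot be told apart from it here, and Mir6236 (625 and 804 at E12 and 44.8 and 37.3 at E14, -4.12 ± 0.48) fell too. The 4 summed to 2.57% and 2.99% of scaled counts in the E12 libraries and 0.212% and 0.14% in the E14 libraries. They made up 0.158% and 0.367% at E11 and 0.978% and 1.13% at E16. Means at E11, E12, E14 and E16 were 713, 13200, 498 and 4320 CPM for Lars2 and 1310, 10700, 840 and 4300 CPM for Rn18s-rs5. Mir6236 ranked these ages in the same order. Whether reads given to Lars2 or Mir6236 came from ribosomal RNA was not tested, so a fall of the synthetase mRNA cannot be read from these counts. With the 4 features left out of the table and its scaling, 2379 genes were called. The pseudogene Rpl14-ps1 (232 and 136 at E12 and 13.2 and 6.0 at E14, -4.25 ± 0.71) fell as well, and its reads could be shared with the gene it copies.

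To ask which changes belonged to this interval more than to the next, the log2 change from E12 to E14 was tested against that from E14 to E16, which is equally long in days. The difference was called above 0 for 1292 genes (5.91%) and below 0 for 544 (2.49%) by edgeR. Among young ganglion cell genes 22 of 28 were called above 0 and 2 below, and among ganglion cell factors 10 of 18 above and none below. For Islr2 the difference of the changes was 5.05 ± 0.34 (edgeR adjusted p 1.54e-07) and for Mapt 3.09 ± 0.29 (4.69e-06). On the log2 scale both genes rose more in the first interval than in the next. In CPM, the means at E12, E14 and E16 were 5.67, 214 and 244 for Islr2 and 7.51, 163 and 418 for Mapt. The CPM gain of Mapt was thus not larger in the first interval. Genes of neuronal commitment gave 3 of 20 above 0 and 1 below. In the step from E11 to E12, which shares the E12 libraries, 13 of these 20 were called higher and none lower. That step also called higher 19 of the 28 young ganglion cell genes, with none lower. Of the 18 ganglion cell factors it called 9 higher and 4 lower, against 4.08% and 3.92% of all genes. Notch genes gave 8 of 24 above 0 and none below, with Hes5 at 3.45 ± 0.73 (0.00559), and hedgehog genes 4 of 16 above and 1 below, with Gli1 at 4.98 ± 0.78 (5.69e-04). Photoreceptor genes divided evenly, 4 above and 4 below of 26, with Prdm1 above (1.93 ± 0.29) and Gnat2, a cone transducin, below (-1.64 ± 0.50). Horizontal and amacrine genes gave 6 above and 4 below of 20, with Prdm13 above (3.18 ± 0.54) and Tfap2b below (-2.83 ± 0.27). The total of 1836 calls in this test was 858 without E14 replicate 2, 1217 without E14 replicate 1 and 983 without both libraries of high lens content.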

How the data were processed

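RNA was sequenced from mouse retinas at 12 ages, 2 libraries each. The authors deposited estimated counts per Ensembl gene and per transcript. Build GRCm38.p5, edgeR 3.13.9 and kallisto 0.42.4 are named, without their roles, per the submitters' processing notes. The step from transcripts to genes is not stated there. Gene counts were rounded and fitted in edgeR 4.0.16 (R 4.3.3) with 1 coefficient per age over all 24 libraries (12 residual degrees of freedom), after filterByExpr with a minimum count of 10 and TMM scaling. Genes were called at a Benjamini-Hochberg adjusted p under 0.05 over all 21858 genes and a difference of at least 2-fold. Each SE was derived from the log2 difference and its F statistic. The E14 libraries and the E12 libraries have 2 replicates each, so precision is limited by their number.

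Named genes were, in each direction, the 12 largest differences and 8 smallest p-values among called genes of at least 20 CPM in the higher age whose libraries did not overlap and whose symbol is no placeholder, all members of 8 lists, and of each other list the 3 called members with the largest differences, with the 3 most abundant members of lists that mark other cell types. The members and lists were chosen with earlier results of these data known. List counts and medians are descriptions with no set test. In data simulated for E14 against E12 over 21629 genes, 84 of 100 genes changed 2.5-fold and 93 of 100 changed 4-fold were recovered. The simulated spread was the one fitted to these libraries. The changed genes were drawn only from those well counted at E12, so recovery at low counts was not measured. Promoters come from RefSeq (GRCm38.p6), searched over the 250 bases before the start. The motif GTGGGAA was added after the data were seen. Alternatives were DESeq2 1.42.0, other scalings and filters, smaller sets of libraries and leaving out each library. The authors' deposited tables of normalized CPM and of comparisons with E11 were not used here.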

Additional observations from a re-analysis of the deposited data

How the results depend on the processing

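Beside the 2382 genes called (1643 higher, 739 lower, 1836 in the test against the next interval), other settings gave these counts. A fit of the 4 libraries alone called 417 lower. A fit of the 8 embryonic libraries called 1452 in all, 339 lower and 467 against the next interval. With no fold threshold 5242 passed, 3553 higher and 1689 lower, and with glmTreat, which tests against a 2-fold change, 808, 673 higher and 135 lower, with 402 against the next interval. Without both libraries of high lens content, chosen after seeing the data, 448 were lower and 983 passed against the next interval. Leaving out 1 of the 4 libraries gave 1857 to 2312 called, 1442 to 1713 higher, 383 to 599 lower and 858 to 1978 against the next interval. The higher share of calls was 69%, 83.3% with glmTreat and 79.4% without E14 replicate 1. Other counts were within 1.5 times, and DESeq2 gave 2155. With the replicate number as a block, 2363 were called (1639 higher, 724 lower) and 1814 against the next interval. The numbers mark no stated pairing of libraries, and the replicate differences of the ages correlated at 0.233 across 15129 genes. Of 263 named genes, none that was called in the main fit or in an alternative changed sign between them. List medians near 0 were not part of that check and could change sign. That of the lens list was 0.21, and -1.28 without both libraries of high lens content. Of 172 named genes that were called, 38 lost the call without at least 1 library and 62 with glmTreat. Genes under about 1 CPM rest on few counts, and with 2 libraries an age their number limits precision.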

Other observations

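Of 27 glycolysis and hypoxia genes 5 were called higher and none lower by edgeR (10 higher without both libraries of high lens content), with a median log2 difference of 0.55, against 7.52% and 3.38% of all genes. From E11 to E12, a step that shares the E12 libraries, 6 of the 27 were called lower (3.92% of all genes), and the list's summed level was 10240 and 14310 CPM at E11, 6919 and 7577 CPM at E12 and 10490 and 9531 CPM at E14. The platelet-type phosphofructokinase Pfkp measured 25.6 and 14.4 CPM at E12 and 209.7 and 191 CPM at E14 (3.33 ± 0.19, edgeR adjusted p 2.68e-09), the liver-type Pfkl 97.5 and 121 CPM at E12 and 239 and 249.6 CPM at E14 (1.16 ± 0.17), and the lactate exporter Slc16a3 21.09 and 29.96 CPM at E12 and 74.6 and 59.9 CPM at E14 (1.40 ± 0.28). All 3 were apart between the ages. At E11 Pfkl measured 189.8 and 277 CPM and Slc16a3 33.4 and 69.1 CPM, above E12, while Pfkp measured 9.66 and 10.9 CPM, below E12.

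Imprinted genes went both ways, with 3 of 13 called higher and 2 lower (7.52% and 3.38% of all genes), and 2 or 3 higher and 1 or 2 lower with any 1 library left out. Magel2 measured 3.23 and 2.99 CPM at E12 and 14.02 and 17.3 CPM at E14 (2.33 ± 0.22, edgeR adjusted p 4.84e-07) and its neighbour Ndn 69.6 and 74.6 CPM at E12 and 161 and 159.8 CPM at E14 (1.16 ± 0.10). The maternally expressed H19 measured 632 and 985 CPM at E12 and 182 and 259 CPM at E14 (-1.88 ± 0.33).

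Some features alternated over the embryonic ages, and were chosen after their values were seen. Gm13301, a pseudogene, had no counts at E11 and E14 and measured 30.7 and 37.6 CPM at E12 and 24.3 and 21.15 CPM at E16. Gm10600 lies close by on the same chromosome (chr4:42240639-42242685, with Gm13301 at chr4:42216908-42235604), so they may not be separate examples. Gm10600 measured 0.0985 and 0, 58.1 and 56.3, 0.0958 and 0.106 and 46.0 and 32.1 CPM at E11, E12, E14 and E16. Whether reads of either were shared with similar features was not tested. Among gene classes, 18 of 129 snoRNA genes were called lower and 1 higher (3.38% and 7.52% of all genes).

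The libraries also differed in sex-linked genes within an age. Xist, made from the inactive X chromosome, measured 1377 and 3175 CPM at E12 and 378 and 3099 CPM at E14, and the Y-linked Ddx3y measured 54.4 and 28.7 CPM at E12 and 56.0 and 24.8 CPM at E14. Both genes were present in all 4 libraries.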
